A study of Mus musculus with 5 samples.

Results

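The Ly49 receptors are a mouse family of lectin-like receptors for major histocompatibility complex (MHC) class I molecules, encoded by the Klra genes. The 10 genes described here are Klra1 to Klra10, chosen by gene symbol, out of 35275 genes in the deposited table. All 10 were present in it. RNA was sequenced from sorted spleen cells of wild-type C57BL/6 mice that were 3 months old, in 5 libraries: 1 labelled CD8 Treg (CD8+ regulatory T cells), 2 labelled CD4 Treg (CD4+ regulatory T cells) and 2 labelled CD49lo. The series' own description names CD8+ cells of an effector-like kind as the remaining population, so CD49lo is that population only by elimination. No treatment or allele is given for any group, and all groups share one protocol: splenocytes enriched for CD8, stained and sorted by flow cytometry. The labels name no sort markers, so it is not known here whether a Ly49 protein was among those used to sort the CD8 Treg, and a gene used to sort a population would be no finding in it. The labels also do not say whether libraries came from separate or pooled animals, so each p-value reflects how far these libraries vary, and that variation may be technical. CD8 Treg values all rest on n = 1.

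Ly49 receptors sit as dimers on natural killer (NK) cells and on a subset of CD8+ T cells, and each cell carries only some members of the family. Most members are inhibitory: an immunoreceptor tyrosine-based inhibitory motif (ITIM) near the start of the cytoplasmic tail recruits phosphatases such as SHP-1, the product of Ptpn6, once the receptor has bound class I. The activating members lack that motif and signal through the adaptor DAP12, the product of Tyrobp. Mice use Ly49 receptors for the task that the structurally unrelated KIR family has in humans.

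The split into inhibitory and activating members can be read from the first 45 coding bases. They are printed 5′ to 3′ from the GENCODE M21 transcripts (GRCm38, chromosome 6, minus strand), for the 4 inhibitory members with the most RPKM in any library and for both activating ones. Capitals mark codon 8, the tyrosine of the ITIM, where the motif is present.
Klra7 (Ly49G), chr6:130231573-130231617: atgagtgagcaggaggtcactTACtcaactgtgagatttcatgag
Klra6 (Ly49F), chr6:130025175-130025219: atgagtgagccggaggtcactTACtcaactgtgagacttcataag
Klra3 (Ly49C), chr6:130335755-130335799: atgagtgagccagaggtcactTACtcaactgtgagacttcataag
Klra9 (Ly49I), chr6:130191257-130191301: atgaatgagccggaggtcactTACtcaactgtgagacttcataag
Klra4 (Ly49D), chr6:130065258-130065302: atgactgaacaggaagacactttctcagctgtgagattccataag
Klra8 (Ly49H), chr6:130128116-130128160: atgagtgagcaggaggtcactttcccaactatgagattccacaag
Within the first 40 codons, 8 of the 10 members had an ITIM and 2, Klra4 and Klra8, did not. Counted from 1 at the A of the start codon and relative to Klra3, both Klra4 and Klra8 carried A23T, which falls in codon 8. Klra6 differed from Klra3 over these bases by A12G alone, and Klra9 by G5A and A12G. Klra1 (Ly49A), Klra2 (Ly49B), Klra5 (Ly49E) and Klra10 (Ly49J) had the tyrosine codon.

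The values were deposited as RPKM, reads scaled to gene length and to the reads in the library. Their steps gave back whole reads, between 5441444 and 8354971 in genes per library. A count of 0 allows up to 3 reads, which is 0.359 to 0.551 RPM (reads scaled to the library alone) depending on the library, and read intervals and limits cover counting error only. On lineage genes the CD4 Treg libraries matched their label and stood apart from CD8 Treg and CD49lo. The level of Cd8a reached 187 RPKM in CD8 Treg, 0.412 and 0.352 in CD4 Treg, and 215 and 255 in CD49lo. That of Foxp3 was 0.387 RPKM in CD8 Treg, 146 in both CD4 Treg libraries, and 1.66 and 0.795 in CD49lo. Ikzf2, from the list of regulatory CD4 genes, stood at 3.96 RPKM in CD8 Treg, 47.7 and 50.4 in CD4 Treg, and 2.63 and 3.00 in CD49lo. None of these genes marks the CD8 Treg library as regulatory against CD49lo, so that identity rests on its label. The CD4 Treg libraries also stood apart in sex-linked RNA: Xist reached 0.0834 RPKM in CD8 Treg, 35.5 and 27.2 in CD4 Treg, and 0.0269 and 0 in CD49lo. Sex and cell population therefore cannot be told apart in the comparisons with CD4 Treg. Markers of other cells were present. Summed B cell markers (5 genes) were 425 RPKM in CD8 Treg, 59.3 and 60.4 in CD4 Treg, and 863 and 938 in CD49lo. Lyz2, a myeloid gene, stood at 70.8 RPKM in CD8 Treg, 4.20 and 1.89 in CD4 Treg, and 224 and 271 in CD49lo. Csf1r, Cd68 and Itgam, from the list of myeloid markers, also lay below both CD49lo libraries in CD8 Treg. The rest of that list did not: Cd14 stood at 3.88 RPKM in CD8 Treg against 2.06 and 2.23 in CD49lo. S100a8 was at 49.1 RPKM in CD8 Treg against 62.6 and 36.5 in CD49lo. S100a9 was at 94.5 RPKM in CD8 Treg against 170 and 92.5 in CD49lo.

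Ly49 RNA was most abundant in CD8 Treg and nearly missing from CD4 Treg. All 10 members had reads in CD8 Treg, 4 and 3 had any in the CD4 Treg libraries, and 9 in each CD49lo library. Summed over the 10 genes, the level was 260.1 RPKM in CD8 Treg, 0.874 and 0.744 RPKM in CD4 Treg, and 36.0 and 161 RPKM in CD49lo. The reads behind these sums numbered 1870 in CD8 Treg, 7 and 5 in CD4 Treg, and 387 and 1283 in CD49lo. One gene, Klra9, set most of the distance between the CD49lo libraries. Without Klra9 the sums were 236 RPKM in CD8 Treg, 0.740 and 0.591 in CD4 Treg, and 17.5 and 19.9 in CD49lo. The CD8 Treg library also stood apart in the share of reads on Gm26917, a predicted gene, with 6.86% in CD8 Treg against 3.33% to 4.16% in the other libraries, and the part of this in the Ly49 values was not tested. In sorted bulk RNA, more cells that express a receptor and more RNA per cell cannot be told apart.

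**Figure D1:**
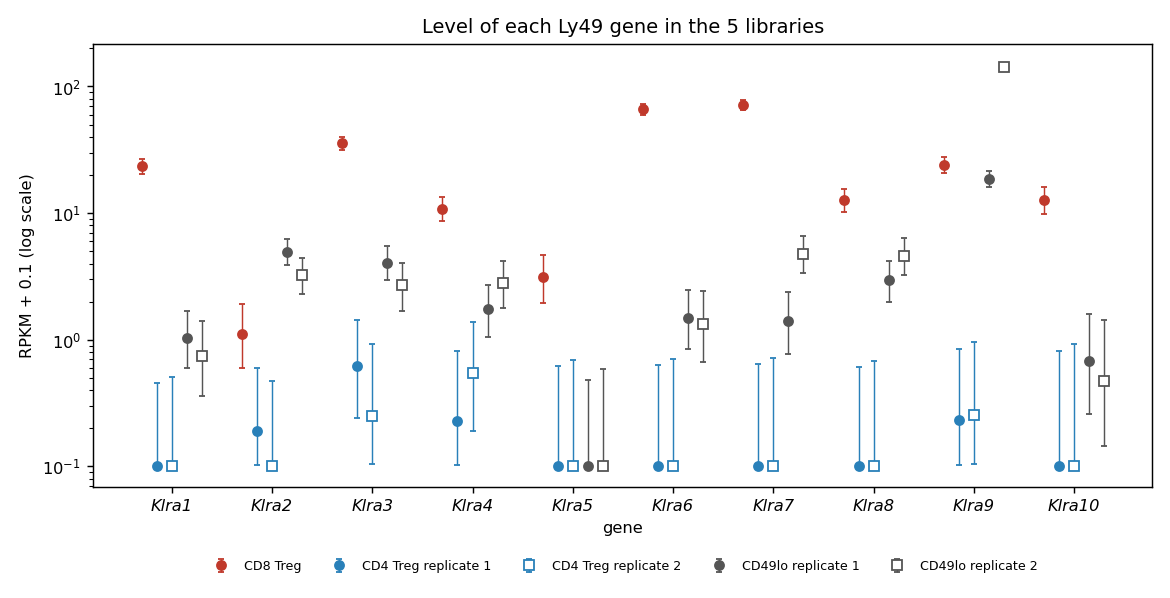
Level of each Ly49 member in each library, as RPKM on a log scale with a small constant added so that 0 can be drawn, with CD8 Treg left of CD4 Treg and CD49lo and bars giving the 95% Poisson interval of the recovered reads. Klra6 and Klra7 sit at 65.8 and 71.7 RPKM in CD8 Treg, no member exceeds 0.521 RPKM in CD4 Treg, and Klra9 is the highest member in both CD49lo libraries.

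Among the inhibitory members, Klra7 and Klra6 had the most RNA in CD8 Treg. Klra7, a receptor for class I molecules of the D and L loci, stood at 71.7 RPKM in CD8 Treg, at 0 in both CD4 Treg libraries, and at 1.30 and 4.69 RPKM in CD49lo. Klra6, whose ligands are less well defined, stood at 65.8 RPKM in CD8 Treg, at 0 in both CD4 Treg libraries, and at 1.39 and 1.23 RPKM in CD49lo. For both genes the CD8 Treg library lay far above every other library. Klra3, which binds H-2Kb of C57BL/6 mice, stood at 35.4 RPKM in CD8 Treg, at 0.521 and 0.148 RPKM in CD4 Treg, and at 3.96 and 2.58 RPKM in CD49lo. Klra1, which binds H-2Dd, stood at 23.3 RPKM in CD8 Treg, at 0 in both CD4 Treg libraries, and at 0.933 and 0.640 RPKM in CD49lo. Klra10, an inhibitory member close in sequence to Klra3 and Klra9, stood at 12.6 RPKM in CD8 Treg, at 0 in both CD4 Treg libraries, and at 0.582 and 0.370 RPKM in CD49lo. The 3 genes again had their highest value in CD8 Treg and no overlap between it and the other libraries. Klra5, a member known from fetal NK cells, had 21 reads and 3.01 RPKM in CD8 Treg and 0 reads in each of the other 4 libraries.

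The activating members, Klra4 and Klra8, ranked below Klra7, Klra6, Klra3, Klra9 and Klra1 in CD8 Treg and above Klra5 and Klra2. Klra4, which recognises H-2Dd and signals through DAP12, stood at 10.7 RPKM in CD8 Treg, at 0.129 and 0.443 RPKM in CD4 Treg, and at 1.63 and 2.69 RPKM in CD49lo. Klra8, the receptor through which C57BL/6 NK cells recognise mouse cytomegalovirus, stood at 12.6 RPKM in CD8 Treg, at 0 in both CD4 Treg libraries, and at 2.84 and 4.53 RPKM in CD49lo. Both were highest in CD8 Treg, with the CD49lo libraries above those of Klra1, Klra6 and Klra10. Together they made up 8.95% of the summed Ly49 RPKM in CD8 Treg and 12.4% and 4.47% in the CD49lo libraries.

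The remaining inhibitory members, Klra9 and Klra2, did not follow this order. Klra9, which like Klra3 binds H-2Kb, stood at 24.0 RPKM in CD8 Treg, at 0.134 and 0.153 RPKM in CD4 Treg, and at 18.5 and 142 RPKM in CD49lo. The CD8 Treg value therefore lay between the values of the CD49lo replicates. Klra2, a member known from myeloid cells, stood at 1.01 RPKM in CD8 Treg, at 0.0896 and 0 RPKM in CD4 Treg, and at 4.86 and 3.13 RPKM in CD49lo. It was the only one of the 10 with both CD49lo libraries above CD8 Treg, and its 11 reads in CD8 Treg were the fewest of any member there.

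CD8 Treg were compared with CD49lo to ask which Ly49 genes separate the population labelled regulatory from the one taken as effector-like. In a limma fit over all genes, 6 of the 10 members were higher in CD8 Treg, none was lower and 4 did not pass an adjusted p of 0.05, against 1.71% of the 13298 genes tested called higher, 3.59% called lower and 5.30% called in either direction. Over all genes 228 calls were higher and 477 lower, or 170 and 656 without the scaling factors between libraries, which left the same number of members called. The members called were Klra1, Klra3, Klra5, Klra6, Klra7 and Klra10, all of the inhibitory form. The median log2 fold change over the 10 members was 3.15, or 3.63 with Klra5 set at the limit its 0 reads allow, and over all genes tested it was -0.04. All 10 passed the filter on low values, 4 of them (Klra1, Klra5, Klra6 and Klra10) through the CD8 Treg library alone, so these 4 had to be high there to be tested at all. Folds are on the log2(RPKM + 0.5) scale, which understates changes of low genes.

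Klra6 differed most among the members, with a log2 fold change of 5.32 ± 0.54 (SE) in CD8 Treg over CD49lo and an adjusted p of 0.00111. It ranked 2 among all 13298 genes by the size of its rise, and Klra7, at 4.69 ± 0.68 (adjusted p = 0.00516), ranked 3. Klra6, like Klra1, Klra5 and Klra10, had to be high in CD8 Treg to be tested. The rank and p-values of these genes are therefore not independent of the filter. Klra1 was higher by 4.34 ± 0.55 (adjusted p = 0.00284) and Klra10 by 3.87 ± 0.56 (adjusted p = 0.00508). Klra3 was higher by 3.40 ± 0.54 (adjusted p = 0.00785). Klra5, with no reads in CD49lo, was higher at an adjusted p of 0.0160. Taking 3 reads over the group as the limit and its 21 CD8 Treg reads as exact, it was at least 17.2-fold higher. Its reads were 0 in every replicated library, so this p-value and that against CD4 Treg rest on the spread of other genes. In pooled reads Klra6 was 49.8-fold higher (95% counting interval 32.5 to 80.3) and Klra3 10.5-fold.

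The activating members did not pass the test between CD8 Treg and CD49lo. On the log2 scale Klra4 differed by 2.23 ± 0.56 (adjusted p = 0.0554) and Klra8 by 1.80 ± 0.55 (adjusted p = 0.108). With limma-voom on the recovered reads both passed, at adjusted p of 0.0137 for Klra4 and 0.0215 for Klra8, and Klra4 also passed with a pseudocount of 1 (adjusted p = 0.0346). Whether activating and inhibitory members differ in their response was not tested. Klra2 differed by -1.45 ± 0.56 (adjusted p = 0.196) and Klra9 by -0.95 ± 0.91 (adjusted p = 0.638).

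The calls between CD8 Treg and CD49lo depended on single libraries. Without CD49lo replicate 1 no member passed, nor did any gene of the table, although 2209 genes had an unadjusted p under 0.05, among them all 10 members, 8 higher in CD8 Treg and 2 lower. In that fit Klra6 kept a log2 fold change of 5.40 with an adjusted p of 0.0940. Without CD49lo replicate 2, 4 members passed (Klra5, Klra6, Klra7 and Klra10), and the sign for Klra9 turned, to 0.48 (adjusted p = 0.476). Klra1 then stood at 4.16 (adjusted p = 0.0549) and Klra3 at 3.12 (adjusted p = 0.237). Without CD4 Treg replicate 1 there were 5, with Klra5 lost (adjusted p = 0.0630), and without CD4 Treg replicate 2 there were 4, with Klra5 (adjusted p = 0.0650) and Klra7 (adjusted p = 0.0564) lost. These fits have 1 residual degree of freedom. With limma-voom on recovered reads 7 members were higher, with no filter on low values 4, and with a constant prior on the variance 1, Klra6.

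**Figure D2:**
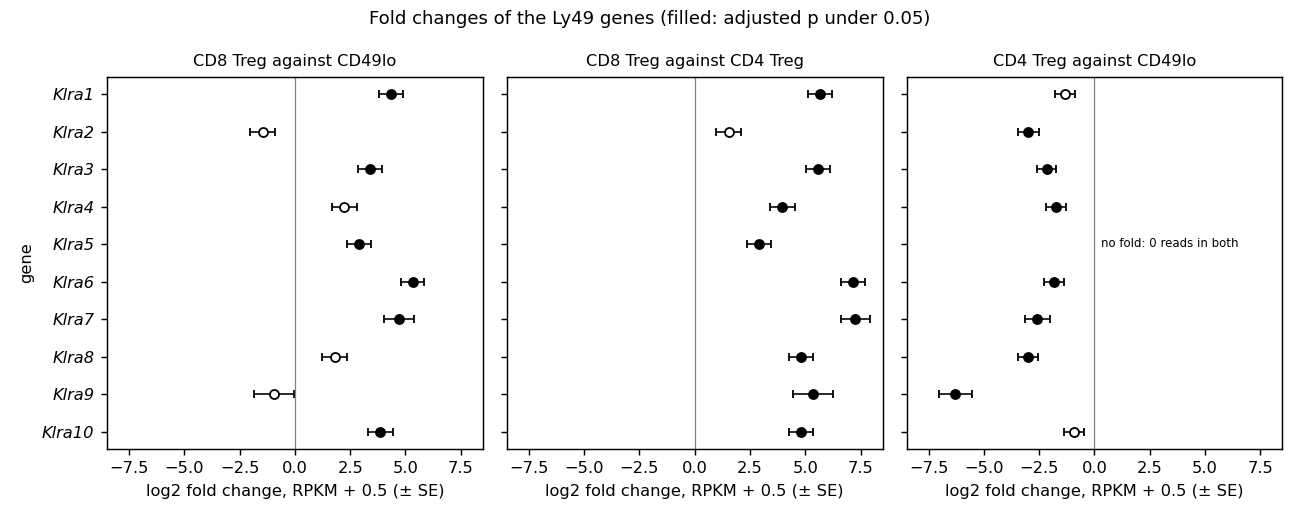
Log2 fold change with standard error of each Ly49 member in the 3 comparisons, from the limma fit on log2(RPKM + 0.5), with filled symbols for an adjusted p under 0.05. Klra6 reaches 5.32 in CD8 Treg over CD49lo, where Klra2 and Klra9 lie below 0, and every member with reads lies below 0 in CD4 Treg over CD49lo.

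Against CD4 Treg, nearly the whole family was higher in CD8 Treg. With limma, 9 of the 10 members were called higher, where 8.51% of all genes tested were called higher, 8.35% lower and 16.9% in either direction. Klra1, Klra5, Klra6 and Klra10 are among the 9, and they passed the filter on low values through the CD8 Treg library alone. These genes therefore had to be high there to be tested at all. Klra2 was the exception, at a log2 fold change of 1.54 ± 0.56 (adjusted p = 0.0994). The median over the members was 5.08, or 5.45 with the 6 members without reads in CD4 Treg at their limit, against 0.02 over all genes. Klra7 was at least 307-fold higher, Klra6 at least 285-fold and Klra1 at least 151-fold. Klra8 was at least 57.5-fold higher, Klra10 at least 40.3-fold and Klra5 at least 13.4-fold. Each fold is against a limit of 3 reads over both CD4 Treg libraries and takes the CD8 Treg reads as exact. Of the members with reads on both sides, Klra3 was higher by 5.56 on the log2 scale (adjusted p = 0.000163), Klra9 by 5.35 ± 0.91 (adjusted p = 0.00376) and Klra4 by 3.96 (adjusted p = 0.00140). The activating Klra8 passed with an adjusted p of 0.000437.

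The member count against CD4 Treg was 8 without either CD4 Treg replicate, where Klra9 was lost (adjusted p = 0.0567 without replicate 1 and 0.0654 without replicate 2). Without CD49lo replicate 1, which enters only through the shared estimate of spread, 6 passed, with Klra3 (adjusted p = 0.0670), Klra4 (0.0754) and Klra9 (0.0518) lost. Without CD49lo replicate 2, 7 passed, with Klra3 (adjusted p = 0.0721) and Klra4 (0.0777) lost. Klra9 also lost its call with no filter (adjusted p = 0.176), a constant prior (0.0794) and limma-voom (0.376), and Klra4 with no filter (0.0528). NK cell markers moved with the family in this comparison: 9 of the 10 markers tested were higher in CD8 Treg, against 8.51% of all genes, and the other, Khdc1a, stood at 0 in CD8 Treg, 2.52 and 1.20 RPKM in CD4 Treg, and 0 in both CD49lo libraries. Summed over 12 genes, they were at 294 RPKM in CD8 Treg, 11.3 and 4.56 RPKM in CD4 Treg, and 528 and 1894 RPKM in CD49lo, and Khdc1b and Khdc1c were at 0 in all libraries. Of these markers, Ncr1, an NK receptor gene, was at 18.8 RPKM in CD8 Treg, 0 in both CD4 Treg libraries, and 5.28 and 7.03 RPKM in CD49lo. Klra8 is itself on this marker list. Markers of other cells were called higher in CD8 Treg too: all 7 myeloid markers and all 5 B cell markers tested. Of 5 plasmacytoid dendritic cell markers, 1 was higher and 2 were lower. The part of NK cells, or of these other cells, in the Ly49 values was not tested.

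CD4 Treg were lower than CD49lo in most members. Of the 10, 7 were called lower by limma and none higher, where 12.8% of all genes tested were called lower, 9.45% higher and 22.3% in either direction. The largest difference was that of Klra9, at a log2 fold change of -6.30 ± 0.75 (adjusted p = 0.000307), followed by Klra8 at -3.00 (adjusted p = 0.00128), Klra2 at -2.99 (adjusted p = 0.00139) and Klra7 at -2.58 (adjusted p = 0.00872). Klra3 stood at -2.16 (adjusted p = 0.00684), with Klra6 at -1.83 (adjusted p = 0.0150) and Klra4 at -1.73 (adjusted p = 0.0236). Klra1, at -1.33 ± 0.45 (adjusted p = 0.0632), and Klra10, at -0.94 (adjusted p = 0.183), did not pass, and Klra5 had no reads in either group. The median was -1.99 over the members, with Klra5 entered as 0, or -2.45 with 5 members at their limit, and -0.03 over all genes. Here as in the other comparisons, these limits come from pooled reads without the scaling factors between libraries. For Klra10 the limit was -0.64, weaker than its fitted -0.94. By reads, Klra8 was at least 16.4-fold lower in CD4 Treg and Klra6 at least 5.72-fold, with the CD49lo reads taken as exact.

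These calls too changed when a library was left out. The members called lower were Klra2, Klra3, Klra8 and Klra9 without CD4 Treg replicate 1, and Klra2, Klra8 and Klra9 without CD4 Treg replicate 2. They were Klra7, Klra8 and Klra9 without CD49lo replicate 1, and Klra2, Klra8, Klra9 and Klra10 without CD49lo replicate 2. Klra8 and Klra9 were called in each of these fits. Over the 4 fits the adjusted p was 0.0832 to 0.174 for Klra4 and 0.0538 to 0.0957 for Klra6, which lost their call in each. For Klra7 it was 0.0832, 0.0919 and 0.0553 without CD4 Treg replicate 1, CD4 Treg replicate 2 and CD49lo replicate 2. For Klra3 it was 0.0840, 0.153 and 0.125 without CD4 Treg replicate 2, CD49lo replicate 1 and CD49lo replicate 2. Klra2 lost its call without CD49lo replicate 1 (adjusted p = 0.0524). With limma-voom on recovered reads 2 members, Klra2 and Klra8, were called lower, and with no filter on low values none was, although 9 then had an unadjusted p under 0.05. Klra9 was at an adjusted p of 0.261 with limma-voom and 0.113 with no filter. All 3 comparisons share libraries, so their values are given side by side and are not independent.

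The make-up of the family differed between CD8 Treg and CD49lo. In CD8 Treg, Klra7 held 27.6% of the summed Ly49 RPKM and Klra6 25.3%, and their read intervals overlapped. Klra3 followed with 13.6%, below Klra6 with no overlap of the intervals. Klra9 and Klra1 came next with 9.22% and 8.96%, overlapping each other but neither Klra3 nor Klra10. Klra10, Klra8 and Klra4, at 4.85%, 4.84% and 4.12%, could not be ordered by their intervals. Klra5 at 1.16% and Klra2 at 0.387% were each below the member above. In CD49lo, Klra9 held 51.4% of the summed RPKM in replicate 1 and 87.7% in replicate 2, with no overlap with the member below, and no other pair of neighbours in the order was separated in either library. In CD4 Treg the reads were too few to order any pair of neighbours.

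**Figure D3:**
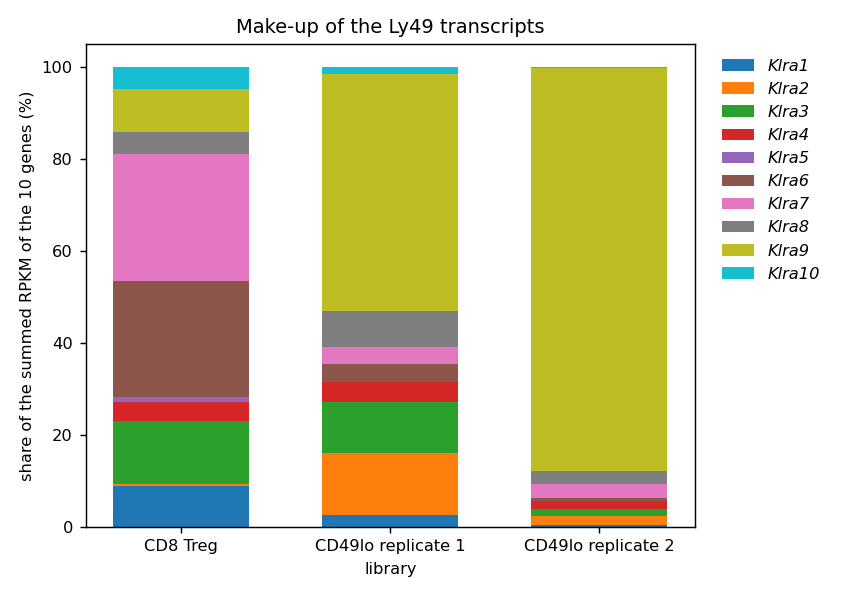
Share of each member in the summed RPKM of the 10 Ly49 genes, in percent, in CD8 Treg and in the CD49lo replicates, with 1 stacked bar per library. Klra7 and Klra6 lead in CD8 Treg with 27.6% and 25.3%, and Klra9 holds 51.4% and 87.7% in the CD49lo libraries. CD4 Treg, with 7 and 5 Ly49 reads, are not drawn.

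The CD49lo replicates differed from each other in single members. Klra9 had 186 reads in replicate 1 and 1116 in replicate 2, a depth-scaled ratio of replicate 2 over replicate 1 of 7.64 (95% counting interval 6.53 to 8.97). For Klra7 the ratio was 3.61 (1.82 to 7.65), and for Klra2 it was 0.645 (0.422 to 0.971). The intervals of Klra1, Klra3, Klra4, Klra6, Klra8 and Klra10 included 1, so the replicates were not separable for these at this depth. Several NK receptor and cytotoxic genes ran in the direction of Klra9. The ratio was 4.90 for Klre1, 3.18 for Klrk1, 4.08 for Klrg1 and 5.20 for Gzma, and 1.33 for Ncr1. Other NK cell markers did not: Fcer1g stood at 59.5 RPKM in replicate 1 and 38.6 in replicate 2, and Eomes at 57.0 and 55.2. Tyrobp had a ratio of 1.21, and the summed NK cell markers without Gzma, Klra8 included, one of 1.41. Gamma-delta T cell markers ran in the direction of Klra9, with 4 genes summing to 25.5 RPKM in replicate 1 and 103 RPKM in replicate 2. Most of these sums was Tcrg-C2, at 21.7 and 84.8 RPKM, a ratio of 3.92. Tcrg-C1 and Tcrg-C4 were higher in replicate 2 as well, and Sox13 stood at 0 and 0.0825 RPKM. Trdc, Trgc1 and Trgc2, also on the list, had no values under those symbols. The part of NK or gamma-delta T cells in the Klra9 values was not tested. These ratios compare 2 libraries and not conditions.

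The 10 genes lie on chromosome 6 of mm10, all on the minus strand. Klra5, the lowest in coordinates (129898996 to 129917650), and Klra1, at 130363918 to 130386874, bound a cluster of 488 kb, and Klra2 follows at 131219223 to 131247362, after a gap of 832 kb. In the cluster the members run Klra5, Klra6, Klra4, Klra8, Klra9, Klra7, Klra10, Klra3 and Klra1. Klra6 (130013033 to 130026954) and Klra7 (130218605 to 130233322), the members with the most RNA in CD8 Treg, are not neighbours: Klra4, Klra8 and Klra9 lie between them. Klra9 (130178753 to 130193112), the leading member in CD49lo, lies beside Klra7.

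**Figure D4:**
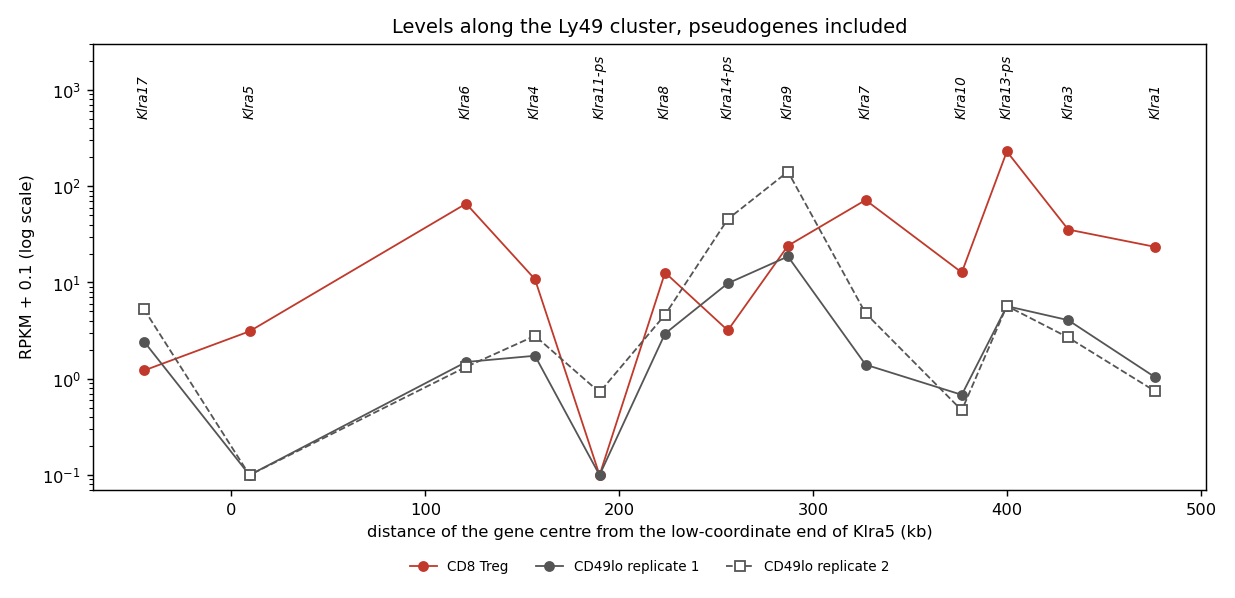
Level of each Klra gene of the cluster, pseudogenes included, in RPKM on a log scale with a small constant added, against the distance of its centre from the low-coordinate end of Klra5 in kb. Lines join the genes of 1 library (CD8 Treg and the CD49lo replicates), and Klra2, 832 kb away, is left out. CD8 Treg levels go up and down along the cluster, with Klra6 at 65.8, Klra4 at 10.7, Klra8 at 12.6, Klra9 at 24.0 and Klra7 at 71.7 RPKM.

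The promoters of members with different patterns hold closely similar stretches. RefSeq promoters (GRCm38.p6, in windows that span each gene's start) were matched for 10 of 10 members, and the longest stretch found in at least 7 of them was GCAATTTCCTC, chosen after the sequences were seen. It was in the promoters of Klra2, Klra3, Klra4, Klra5, Klra6, Klra8 and Klra9, and in 19 of 32851 promoters in the table (0.0578%), both strands searched. Windows of 71 bases around it are shown for members that differ in level and pattern, minus strand, 5′ to 3′, with the stretch in capitals.
Klra6, chr6:130027037-130027107: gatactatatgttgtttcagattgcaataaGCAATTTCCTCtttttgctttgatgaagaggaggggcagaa
Klra9, chr6:130193114-130193184: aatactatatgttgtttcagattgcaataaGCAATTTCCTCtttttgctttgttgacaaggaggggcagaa
Klra5, chr6:129913278-129913348: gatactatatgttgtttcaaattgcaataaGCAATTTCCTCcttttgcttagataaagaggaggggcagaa
Klra8, chr6:130129942-130130012: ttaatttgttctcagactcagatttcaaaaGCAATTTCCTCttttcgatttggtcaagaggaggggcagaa
Klra6, with 65.8 RPKM in CD8 Treg, and Klra5, with 3.01 RPKM there, share the stretch, as do Klra9, the leading gene in CD49lo, and the activating Klra8. The stretch was absent from the promoter windows of Klra7, Klra1 and Klra10, which were high in CD8 Treg as well. Klra10 as annotated begins at 130281928, beside its coding start at 130281922. Klra9, by contrast, begins at 130193112 and has its coding start at 130191301. The Klra10 window thus sits at its start codon, and a start further upstream would lie outside it, so absence there is not informative. The RUNX core TGTGGT was in 1 of 10 members (Klra1) and in 16.8% of all promoters, and the TCF/LEF core CTTTGA was in 2 of 10 (Klra6 and Klra7) and in 16.0% of all. A match is a description of these letters in this window.

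How far reads can be told apart between members differs by gene. Of the 50-base stretches in each gene's annotated transcripts, the share also found in another gene was 39.8% for Klra10, 33.1% for Klra8, 31.5% for Klra9, 20.7% for Klra3 and 12.3% for Klra7. It was 4.68% for Klra4, 2.98% for Klra1, 2.62% for Klra6, 0.655% for Klra5 and 0 for Klra2. With 100-base stretches the highest share was 14.4%, in Klra8, and Klra10, Klra9, Klra7 and Klra3 had 5.25%, 4.07%, 1.83% and 1.78%. By pairs, Klra10 shared 21.4% of its 50-base stretches with Klra9 and 15.4% with Klra3, and Klra8 shared 20.4% with the pseudogene Klra14-ps. Read length and the treatment of reads with several matches are not given in the sources used here, so the levels of Klra10, Klra8, Klra9, Klra3 and, less so, Klra7 are uncertain in how reads were divided. Klra6, Klra1, Klra4, Klra5 and Klra2 share little sequence.

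**Figure D5:**
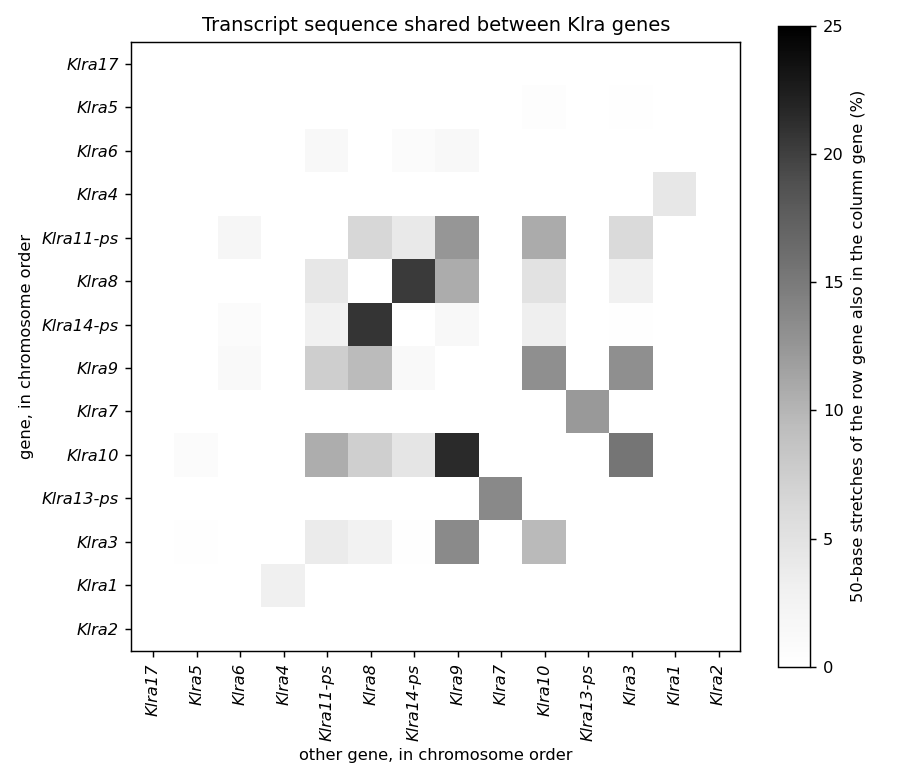
Percent of the 50-base stretches in the annotated transcripts of the gene in each row that also occur in the gene of each column, in shades of grey, for the 14 Klra genes in chromosome order. The darkest pairs are Klra10 with Klra9 at 21.4% and Klra8 with Klra14-ps at 20.4%, the rows of Klra6 and Klra5 are nearly white, and Klra2 shares none.

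The genes around the Ly49 pathway were counted by list. Of 12 other lectin-like receptor genes of the NK gene complex that were tested, none was higher in CD8 Treg than in CD49lo and 1, Klrg1, was lower, close to the 1.71% and 3.59% of all genes. The list's median log2 fold change was -0.88, and that of all genes -0.04. Klrg1, an inhibitory receptor of mature effector cells, stood at 0.582 RPKM in CD8 Treg, 13.5 and 11.7 RPKM in CD4 Treg, and 34.5 and 141 RPKM in CD49lo, a log2 fold change of -5.93 ± 0.63 for CD8 Treg over CD49lo (limma, adjusted p = 0.00125). Klrd1, which encodes the CD94 chain, was by contrast at 117 RPKM in CD8 Treg, 0 in both CD4 Treg libraries, and 81.9 and 157 RPKM in CD49lo, so the CD8 Treg value lay between the CD49lo replicates. Against CD4 Treg, 7 of the 12 were higher in CD8 Treg and 1 was lower, where 8.51% and 8.35% of all genes were. In CD4 Treg 9 of the 12 were lower than in CD49lo, where 12.8% of all genes were.

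The signalling partners of Ly49 receptors came next. Among 18 genes, CD8 Treg had 6 higher and 3 lower than CD4 Treg, where 8.51% of all genes were called higher and 8.35% lower. Against CD49lo none was higher and 1, Lat, was lower (log2 fold change -0.60, adjusted p = 0.0205), a share near the 5.30% of all genes called in that comparison. In CD4 Treg, 3 were higher and 6 lower than in CD49lo, against 9.45% and 12.8% of all genes. Tyrobp, the adaptor of the activating members, stood at 42.3 RPKM in CD8 Treg, 0.286 and 0.326 RPKM in CD4 Treg, and 71.3 and 86.4 RPKM in CD49lo. It was higher in CD8 Treg than in CD4 Treg by 5.83 ± 0.43 on the log2 scale (adjusted p = 3.73e-05). Ptpn6, the SHP-1 phosphatase recruited by the ITIM, stood at 249 RPKM in CD8 Treg, 132 and 117 RPKM in CD4 Treg, and 188 and 206 RPKM in CD49lo. Its log2 fold change was 1.10 ± 0.13 for CD8 Treg over CD4 Treg (adjusted p = 0.000497). Hcst, the DAP10 adaptor, was higher by 1.64 ± 0.29 in CD8 Treg than in CD4 Treg (adjusted p = 0.00444).

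Ligands and class I presentation genes ran the other way. Of 10 genes, 8 were lower in CD8 Treg than in CD4 Treg and none was higher, where 8.35% and 8.51% of all genes were. The median log2 fold change was -0.66, against 0.02 over all genes. The 10 include Plau, which is not a class I gene and was not called in any comparison. Its log2 fold change of 0.79 for CD8 Treg over CD4 Treg enters that median. H2-K1, which encodes the class I heavy chain bound by Klra3 and Klra9, differed by -0.82 ± 0.13 (limma, adjusted p = 0.00294). Against CD49lo, where 3.59% of all genes were lower, 2 were lower in CD8 Treg: Tap1, a subunit of the peptide transporter, at -0.66 (adjusted p = 0.0199), and Nlrc5, the class I transactivator, at -0.65 (adjusted p = 0.0165). In CD4 Treg, 4 of the 10 were higher than in CD49lo and none was lower, where 9.45% and 12.8% of all genes were.

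Transcription factors linked to Ly49 expression in the literature on NK and T cells were mixed. Among 18, CD8 Treg had 1 higher and 4 lower than CD49lo, and 7 higher and 9 lower than CD4 Treg, and 8 were higher and 5 lower in CD4 Treg than in CD49lo. Over all genes the shares higher and lower were 1.71% and 3.59%, 8.51% and 8.35%, and 9.45% and 12.8% in these 3 comparisons. The one higher than in CD49lo was Lef1, a TCF/LEF family factor, at 128 RPKM in CD8 Treg, 80.7 and 82.4 RPKM in CD4 Treg, and 90.9 and 83.8 RPKM in CD49lo (a difference of 0.68 on the log2 scale, adjusted p = 0.0150). The 4 lower were Id2, an inhibitor of E proteins, at -2.21 (adjusted p = 0.000470), Zeb2, a repressor of late effector cells, at -2.33 (adjusted p = 0.0134), Prdm1, which encodes Blimp-1, at -1.32 (adjusted p = 0.0205), and Runx1, at -0.93 (adjusted p = 0.0180). Id2 stood at 40.8 RPKM in CD8 Treg, 19.3 and 23.4 RPKM in CD4 Treg, and 189 and 232 RPKM in CD49lo. Against CD49lo, each of these 5 factors, and Klrg1, Lat, Tap1 and Nlrc5, lost its call without CD49lo replicate 1 and again without CD49lo replicate 2, where Id2 stood at -2.34 (adjusted p = 0.197) and -2.08 (adjusted p = 0.183). Lef1, Zeb2, Prdm1, Runx1, Lat, Tap1 and Nlrc5 also lost theirs without either CD4 Treg replicate. Against CD4 Treg, Hcst, Ptpn6 and H2-K1 no longer passed without either CD49lo replicate, H2-K1 without either CD4 Treg replicate, and Tyrobp without CD49lo replicate 1 (adjusted p = 0.0516). Without a CD49lo replicate the log2 fold changes barely moved, to 1.64 for Hcst, 1.10 for Ptpn6, -0.83 for H2-K1 and 5.82 to 5.83 for Tyrobp, while calls over the whole table, with 1 residual degree of freedom, numbered 155 and 330 in place of 2241.

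Calls in the marker lists of other cells, against 1.71% of all genes called higher and 3.59% called lower, were all in the direction of less RNA in CD8 Treg than in CD49lo. Of 10 NK cell markers tested, none was higher in CD8 Treg and 1, Gzma, was lower, at 56.4 RPKM in CD8 Treg, 1.47 and 0.628 in CD4 Treg, and 304 and 1580 in CD49lo (a difference of -3.47 ± 0.74 on the log2 scale, adjusted p = 0.0295, and 0.120 to 0.287 without any 1 of the 4 replicated libraries). Without Gzma the markers summed to 238 RPKM in CD8 Treg, 9.84 and 3.93 in CD4 Treg, and 224 and 315 in CD49lo, a sum that still holds Klra8. Ncr1 in the same list was at 3.06 times the CD49lo mean in CD8 Treg. None of 10 T cell markers, 3 CD8 lineage genes, 3 gamma-delta T cell markers and 5 sex-linked genes was called between CD8 Treg and CD49lo. Lower in CD8 Treg were 1 of 4 regulatory CD4 genes, both CD4 lineage genes, 4 of 5 plasmacytoid dendritic cell markers, 1 of 5 B cell markers and 1 of 7 myeloid markers.

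Genes with the most similar pattern were found by the root mean square difference between log2 profiles centred on their own mean, over the 5 libraries and 9074 candidate genes, for each member that reached 5 RPKM. Members were often nearest to each other. Klra10 was nearest to Klra1 (0.32), and Klra6 had Klra1 (0.54), Klra7 (0.63) and Klra3 (0.76) as its nearest genes. Klra7 had Klra6 (0.63), Klra1 (0.90) and Klra3 (0.93). Of these genes, Klra1, Klra6 and Klra10 passed the filter on low values through the CD8 Treg library alone. Their likeness was thus partly set by the filter and rests on 1 CD8 Treg library. The activating members had no other member among their nearest, and neither did the inhibitory Klra9. Klra8 was nearest to Gzmm (0.25), Ncr1 (0.33) and St3gal6 (0.38), and Klra4 to Aqp9 (0.22), Dmrta1 (0.33) and Spry2 (0.34). Klra3 was nearest to Dmrta1 (0.46), Klra1 (0.48) and Zfp296 (0.57). Klra9 had Klre1 (0.48), Kcnj8 (0.58) and Klrk1 (0.65) as nearest genes, all 3 higher in CD49lo replicate 2 than in replicate 1. The points share the same 5 libraries and their depth, and nothing beyond likeness of level is implied.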

How the data were processed

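The authors deposited one table of RPKM per gene and library. Per the submitters' processing notes, CASAVA, STAR and the mm10 build were used, without versions; the counter, its strand setting and its treatment of multiply matching reads are not given in the sources used here. In each library every value times its gene length was a whole multiple of 1 read (100% within 0.02), so reads were recovered. A count model had been considered in case the file held raw counts; as it held RPKM, log2(RPKM + 0.5), scaled by TMM factors computed from the recovered reads, was fitted with limma 3.58.1 (R 4.3.3), using every library and 1 coefficient for each of 3 groups, which leaves 2 residual degrees of freedom. CD8 Treg, with 1 library, are taken to vary as the other groups do. Empirical Bayes moderation used a prior that follows mean log2 RPM. Genes needed the equivalent of 10 reads, at the median library depth, in 1 library or more and 15 reads in total, leaving 13298. P-values are two-sided, with Benjamini-Hochberg adjustment over all genes tested, and called means an adjusted p under 0.05. The fit was tested on simulated data. Read intervals are exact Poisson or binomial ones at 95%.

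All 10 members are named, with other Klra genes, some genes of each list, and the 3 genes nearest in pattern. The genes named from a list are not always those with the smallest p. In CD8 Treg over CD4 Treg, log2 fold changes not given above include 3.65 for Plcg2, 3.40 for Syk and -0.86 for Cd247 among signalling genes. Among transcription factors they include 5.85 for Eomes, 4.75 for Tbx21 and -3.38 for Ikzf2. The members and lists were chosen with earlier results of these data known. Alternatives were other pseudocounts, no filter, no TMM factor, a constant prior, limma-voom, each replicate left out and a replicate block. Sequences come from GENCODE M21, in which 8 of 10 members have the deposited start and end, and from RefSeq.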

Additional observations from a re-analysis of the deposited data

How the results depend on the processing

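Genes called in CD8 Treg over CD49lo, CD8 Treg over CD4 Treg and CD4 Treg over CD49lo numbered 705, 2241 and 2964. With a constant prior they were 2, 1192 and 1961, and with no filter 580, 1277 and 704. Leaving out 1 library gave 0 to 199, 155 to 967 and 437 to 1457, with 1 residual degree of freedom. Ly49 members higher in CD8 Treg than in CD49lo were 6, with a constant prior 1 (Klra6) and with 1 library left out 0 to 5. Members higher in CD8 Treg than in CD4 Treg were 9, and 6 to 8 with 1 library left out. Members lower in CD4 Treg than in CD49lo were 7, with no filter 0, with limma-voom 2 and with 1 library left out 3 to 4. The log2 fold change of Klra9 in CD8 Treg over CD49lo, -0.95, ranged between -2.38 and 0.48 with 1 library left out. The cause of these shifts was not tested. No filter raised the genes tested to 21346.

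Without TMM factors 6, 9 and 7 members were called, and the median of all genes in CD8 Treg over CD49lo shifted to -0.16. Of the genes called there, the share higher in CD8 Treg was 32.3%, and 20.6% without TMM factors, 85.2% with no filter and 50.8% with limma-voom. In CD8 Treg over CD4 Treg it was 50.5%, and 69.1% with no filter. Over other settings, 190 of the fold changes of Klra genes kept their direction and side of the threshold, 30 lost their call and 8 gained one. CD4 Treg and CD49lo share replicate numbers, but their deviations did not go together (r = -0.0202 over 13298 genes), so the numbers were not taken as pairs. With a replicate block, 3577 of 12014 genes were called in that comparison, and of the members the 5 that passed its filter were lower. Depth limits Klra5, Klra2 and all CD4 Treg values, which rest on at most 4 reads per member.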

Other observations

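The Klra gene with the highest level in CD8 Treg was a pseudogene and none of the 10 receptor genes. Klra13-ps (mm10 chromosome 6, 130291161 to 130306432, minus strand, annotated as a pseudogene and also known as Ly49M) stood at 229.5 RPKM in CD8 Treg, from 1136 reads, at 0.198 and 0 RPKM in CD4 Treg, and at 5.58 and 5.61 RPKM in CD49lo. Its log2 fold change was 5.37 ± 0.51 in CD8 Treg over CD49lo (limma, adjusted p = 0.000754) and 8.70 in CD8 Treg over CD4 Treg (adjusted p = 9.67e-06), the largest rise of all 13298 genes in each comparison. Against CD49lo the fold change was 5.38 without CD49lo replicate 1 (adjusted p = 0.179) and 5.35 without replicate 2 (adjusted p = 0.152), so the call was lost in both while the size stayed. It shares 13.7% of its 50-base stretches with Klra7, and Klra7 shares 12.3% of its own with it, so part of the reads of either could have been placed on the other, which was not tested.

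Klra14-ps, a pseudogene beside Klra9 (130149106 to 130160748), differed between the CD49lo replicates in the direction of Klra9. It stood at 3.08 RPKM in CD8 Treg, 0.402 and 0 RPKM in CD4 Treg, and 9.70 and 45.4 RPKM in CD49lo, a ratio of CD49lo replicate 2 over replicate 1 of 4.68 (95% counting interval 3.54 to 6.26), where Klra9 had 7.64 and Klra8 1.59. It shared 1.44% of its 50-base stretches with Klra9, while Klra8 shared 20.4% of its own with it. Klra17 (Ly49Q), known from plasmacytoid dendritic cells, stood at 1.12 RPKM in CD8 Treg, 0 and 0.468 RPKM in CD4 Treg, and 2.34 and 5.18 RPKM in CD49lo. Siglech, a marker of those cells, stood at 1.14 RPKM in CD8 Treg, 0.210 and 0 RPKM in CD4 Treg, and 11.3 and 11.5 RPKM in CD49lo.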
